A study of Mus musculus with 16 samples.

Results

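Neutrophil transcripts in the kidney were followed as 8 genes, S100a8, S100a9, Clec4d, Clec4e, Csf3r, Cxcr2, Il1r2 and Trem1, chosen by gene symbol as messages that neutrophils carry. The choice was made with earlier results of these data known. All 8 were among the 20525 genes of the deposited matrix. The study sequenced RNA from frozen kidney sections 30 µm thick, taken from mice aged 8 weeks with the strain background given in the labels as C56BL/6. Of the 4 groups of 4 libraries, the labelled C3-/- glycerol and WT glycerol mice had 50% glycerol, 7.5 ml/kg, injected into a thigh muscle to induce rhabdomyolysis, and the labelled C3-/- PBS and WT PBS mice had PBS. The time from injection to sampling and the sex of the mice are not given in the labels. C3 is the complement component that is cleaved when the complement cascade is activated, and the C3-/- genotype targets its gene. Nothing in the labels says that the libraries of a group came from separate animals. Libraries of each labelled C3-/- group differed in Y-linked transcripts, as given below, so they did not all come from the same mouse. A p-value here reflects variation between libraries, which may be technical in part or, in the WT groups, in whole.

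Neutrophils are short-lived white blood cells that mature in bone marrow and are usually among the first leukocytes to enter injured tissue. They leave the marrow under the growth factor G-CSF, whose receptor is encoded by Csf3r, and follow CXC chemokines through the receptor encoded by Cxcr2. S100a8 and S100a9 encode the subunits of calprotectin, a calcium-binding protein that fills the neutrophil cytoplasm. Clec4d and Clec4e encode the C-type lectin receptors MCL and Mincle, Trem1 encodes a receptor that amplifies inflammatory signals, and Il1r2 encodes a decoy receptor that binds interleukin-1 without signalling. Monocytes can express several of these genes too. The tissue is bulk kidney, so fewer neutrophils and less of a transcript per neutrophil cannot be told apart in any comparison.

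A few features of the libraries bear on what follows. The values are read counts that the authors normalized with DESeq2, with library totals of 25.81 M to 38.39 M over all genes. How many reads they stand for is unknown. C3 signal, the sum over the whole gene, overlapped between the genotypes after glycerol. It lay between 1457.3 and 8008.0 in the libraries labelled C3-/- glycerol, against 1711.7 to 4717.5 in WT glycerol. After PBS every library labelled C3-/- lay above every WT library, at 563.8 to 1139.7 against 334.9 to 470.5. Which part of the gene was removed is stated neither in the labels nor in the files, so this signal does not check the genotype, and each genotype direction given here rests on the labels. The sample names carry sheet numbers that start again for 3 libraries, C3-/- glycerol 1 and 3 and WT glycerol 4, called list 2 here; the other 13 are list 1. WT glycerol 4 had 3374 genes at 0, and C3-/- glycerol 1 and 3 had 982 and 750, against 190 to 540 in list 1. Library totals were 35.81 M to 38.39 M in list 2 and 25.81 M to 34.01 M in list 1. Y-linked transcripts were detected in all WT libraries, in C3-/- glycerol 3 and 4 and in C3-/- PBS 4, and not in the other 5.

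The genes form 2 close pairs in the genome, which is why these 4 promoters are shown. In GRCm38, S100a8 (ENSMUSG00000056054) lies on chromosome 3 from 90668978 to 90670035 on the plus strand, and S100a9 (ENSMUSG00000056071) on the same chromosome from 90692632 to 90695721 on the minus strand. Clec4d (ENSMUSG00000030144) lies on chromosome 6 from 123262111 to 123275265 on the plus strand, and Clec4e (ENSMUSG00000030142) next to it from 123281789 to 123289870 on the minus strand. Csf3r is on chromosome 4 (126024550 to 126044440, plus), Cxcr2 and Il1r2 on chromosome 1 (74153989 to 74161246 and 40074079 to 40125231, both plus) and Trem1 on chromosome 17 (48232768 to 48246924, plus). No exon of another annotated gene overlaps an exon of any of the 8. The RefSeq promoter windows (GRCm38.p6, 250 bases before to 50 after the start, 5′ to 3′ on the gene's strand) of chr3:90668821-90669120, chr3:90695672-90695971, chr6:123261857-123262156 and chr6:123289822-123290121 read as follows, with matches to the letters of a C/EBP motif (TTNNGNAA) or a PU.1 motif (GAGGAAGT), on either strand, in capitals.
S100a8: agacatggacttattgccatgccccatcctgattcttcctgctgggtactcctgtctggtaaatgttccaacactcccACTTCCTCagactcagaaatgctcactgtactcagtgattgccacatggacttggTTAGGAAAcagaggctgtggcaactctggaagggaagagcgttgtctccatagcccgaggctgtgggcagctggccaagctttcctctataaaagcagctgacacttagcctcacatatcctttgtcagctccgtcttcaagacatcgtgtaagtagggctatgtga
S100a9: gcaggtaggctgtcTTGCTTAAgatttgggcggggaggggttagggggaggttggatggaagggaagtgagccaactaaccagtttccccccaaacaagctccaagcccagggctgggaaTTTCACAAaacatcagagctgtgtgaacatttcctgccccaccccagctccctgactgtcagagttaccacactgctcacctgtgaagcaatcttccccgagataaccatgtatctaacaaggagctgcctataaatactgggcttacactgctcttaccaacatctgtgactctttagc
Clec4d: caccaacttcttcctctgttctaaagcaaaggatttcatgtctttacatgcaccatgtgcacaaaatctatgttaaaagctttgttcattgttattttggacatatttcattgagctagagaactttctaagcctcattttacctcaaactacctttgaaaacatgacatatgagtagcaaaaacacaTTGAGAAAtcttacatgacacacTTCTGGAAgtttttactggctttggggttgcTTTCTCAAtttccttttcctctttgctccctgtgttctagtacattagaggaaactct
Clec4e: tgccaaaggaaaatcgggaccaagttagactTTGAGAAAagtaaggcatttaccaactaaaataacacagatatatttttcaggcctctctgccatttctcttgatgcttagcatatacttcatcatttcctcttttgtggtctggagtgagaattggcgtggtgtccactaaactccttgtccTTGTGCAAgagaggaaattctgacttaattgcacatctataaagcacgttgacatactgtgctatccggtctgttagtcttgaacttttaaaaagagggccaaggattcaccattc
C/EBP proteins and PU.1 are transcription factors of the granulocyte lineage. The C/EBP letters occurred in the windows of 5 of the 8 genes (the 4 shown and Trem1) and in 40.7% of 32851 RefSeq promoter windows. The PU.1 letters occurred in 1 of the 8 (S100a8) and in 3.2% of all windows. Of 3 motifs of inflammatory factors, the STAT letters TTCNNNGAA occurred in 2 windows (Il1r2 and Trem1; 8.3% of all), and the AP-1 letters TGANTCA (7.81% of all) and NF-kB letters GGANTTTCC (1.25% of all) in none of the 8. These matches describe the sequence and do not show binding. The Il1r2 window (chr1:40085843-40086142) is at a RefSeq start inside the gene span given above, not at the start of that span.

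**Figure D1:**
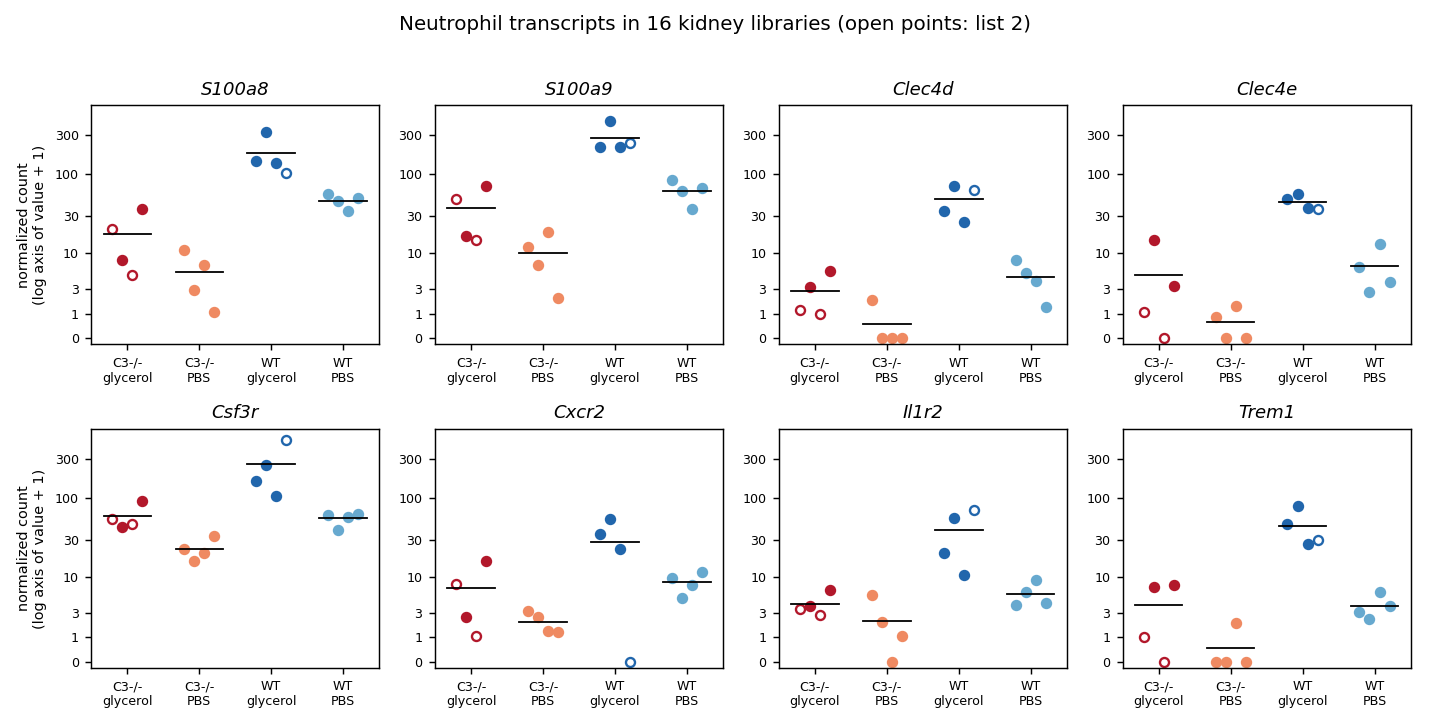
Normalized count of each of the 8 neutrophil transcripts (y axis, log axis of value + 1) in the 16 libraries, by group (x axis). Points are libraries, open for list 2, and lines are group means. For 7 of the 8 genes every WT glycerol library lay above every C3-/- glycerol and every WT PBS library; Cxcr2 was listed at 0 in WT glycerol 4.

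The calprotectin genes had the highest levels of the 8 for their length and were lower in libraries labelled C3-/- under both treatments. S100a8 had normalized counts of 20.5, 8.1, 4.9 and 36.8 in C3-/- glycerol and 11.1, 2.9, 6.9 and 1.1 in C3-/- PBS, against 143.6, 335.4, 139.4 and 103.5 in WT glycerol and 56.9, 46.0, 34.5 and 50.4 in WT PBS. All 4 libraries of each labelled C3-/- group lay below all 4 of the WT group with the same treatment. The log2 difference was -3.5 ± 0.61 (SE, limma adjusted p = 0.0018) for C3-/- glycerol against WT glycerol and -3.16 ± 0.61 (limma adjusted p = 0.011) for C3-/- PBS against WT PBS. In WT kidneys S100a8 rose after glycerol, with a log2 difference of 1.79 ± 0.61 and a limma adjusted p of 0.042. That call was close to the threshold: it was lost when any 1 of WT PBS 1 to 4, WT glycerol 1 to 3 or C3-/- PBS 2 or 3 was left out (adjusted p 0.051 to 0.13, the highest without WT glycerol 2), with a pseudocount of 0.5 and with every library scaled to the same total.

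S100a9 gave the same picture at slightly higher counts. It had 49.6, 16.9, 14.8 and 72.4 in C3-/- glycerol and 11.9, 6.8, 19.1 and 2.1 in C3-/- PBS, against 219.4, 446.9, 215.4 and 240.7 in WT glycerol and 83.8, 62.3, 37.0 and 67.7 in WT PBS. It was lower in C3-/- glycerol than in WT glycerol by a log2 difference of -3.07 ± 0.58 (limma adjusted p = 0.003) and in C3-/- PBS than in WT PBS by -2.77 ± 0.58 (limma adjusted p = 0.018), with no overlap between groups in either comparison. The PBS call was lost without WT PBS 1, 2 or 4 or C3-/- PBS 2 (adjusted p 0.059 to 0.067). It rose in WT kidneys after glycerol by 2.13 ± 0.58 (limma adjusted p = 0.014). The ratio of S100a9 to S100a8 was 1.97 to 3.0 in C3-/- glycerol and 1.08 to 2.76 in C3-/- PBS, against 1.33 to 2.33 in WT glycerol and 1.07 to 1.47 in WT PBS.

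Set beside WT kidneys given PBS, the kidneys labelled C3-/- had no higher mean of either calprotectin gene even after glycerol. S100a8 averaged 17.6 ± 14.4 (SD, n = 4) in C3-/- glycerol, against 47.0 ± 9.40 (SD, n = 4) in WT PBS, and S100a9 averaged 38.4 ± 27.7 in C3-/- glycerol, against 62.7 ± 19.4 in WT PBS. Libraries of these groups, which differ in genotype and treatment and were not tested against each other, overlapped for both genes.

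Csf3r and Cxcr2, the receptor genes for G-CSF and CXC chemokines, serve release from the marrow and migration. Csf3r had 54.6, 43.8, 47.0 and 91.5 in C3-/- glycerol and 22.9, 16.1, 20.6 and 33.6 in C3-/- PBS, against 162.1, 258.0, 105.3 and 519.1 in WT glycerol and 62.6, 40.0, 58.1 and 64.2 in WT PBS. It was the only one of the 8 whose C3-/- glycerol libraries all lay above the C3-/- PBS libraries. It rose in WT after glycerol by 1.96 ± 0.42 on the log2 scale (limma adjusted p = 0.0032) and was lower in C3-/- glycerol than in WT glycerol by -1.93 ± 0.42 (limma adjusted p = 0.0072). The log2 difference was 1.29 ± 0.42 (limma adjusted p = 0.08) for C3-/- glycerol against C3-/- PBS, and -1.26 ± 0.42 (limma adjusted p = 0.17) for C3-/- PBS against WT PBS. Without WT glycerol 4 these adjusted p-values were 0.019 and 0.048.

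Cxcr2 turned on 1 library. It had 8.1, 2.6, 1.1 and 16.3 in C3-/- glycerol and 3.2, 2.6, 1.4 and 1.3 in C3-/- PBS, against 35.6, 55.4, 23.4 and 0 in WT glycerol and 9.5, 5.0, 7.7 and 11.5 in WT PBS. The value of 0 was in WT glycerol 4, the library with the most genes at 0 and the highest Csf3r value. With that library the log2 difference in WT was 0.72 ± 1.0 (limma adjusted p = 0.62), and that of C3-/- glycerol against WT glycerol -1.36 ± 1.0 (limma adjusted p = 0.45). Without it these were 2.03 (limma adjusted p = 0.025) and -2.66 (limma adjusted p = 0.0083).

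The lectin receptor genes were higher in WT glycerol than in the other 3 groups, and each was at 0 in some of the libraries labelled C3-/-. Clec4d had 1.2, 3.2, 1.0 and 5.7 in C3-/- glycerol and 1.9, 0, 0 and 0 in C3-/- PBS, against 35.3, 71.7, 25.3 and 64.5 in WT glycerol and 8.1, 5.2, 4.0 and 1.4 in WT PBS. Clec4e had 1.1, 15.0, 0 and 3.4 in C3-/- glycerol and 0.8, 0, 1.5 and 0 in C3-/- PBS, against 49.5, 56.9, 38.6 and 36.8 in WT glycerol and 6.4, 2.7, 13.2 and 3.8 in WT PBS. For both genes the WT glycerol libraries stood clear of every other library, while C3-/- glycerol overlapped WT PBS. In WT, Clec4d rose by 3.18 ± 0.57 (limma adjusted p = 0.0011) and Clec4e by 2.8 ± 0.71 (limma adjusted p = 0.0096) on the log2 scale. Against WT glycerol, both were lower in C3-/- glycerol, by log2 differences of -3.8 ± 0.57 (limma adjusted p = 0.00062) and -3.72 ± 0.71 (limma adjusted p = 0.0032). Neither passed the threshold between the PBS groups, at -1.97 (limma adjusted p = 0.11) and -2.16 (limma adjusted p = 0.17).

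Trem1 followed the lectin receptors. It had 1.0, 7.3, 0 and 7.8 in C3-/- glycerol and 0, 0, 2.0 and 0 in C3-/- PBS, against 47.0, 78.7, 26.8 and 29.7 in WT glycerol and 3.1, 2.4, 6.2 and 3.9 in WT PBS. It rose in WT by 3.18 ± 0.68 (limma adjusted p = 0.0035) and was lower in C3-/- glycerol than in WT glycerol by -3.62 ± 0.68 (limma adjusted p = 0.0031). The decoy receptor gene Il1r2 had 3.5, 3.8, 2.8 and 6.5 in C3-/- glycerol and 5.6, 2.1, 0 and 1.1 in C3-/- PBS, against 20.7, 57.1, 10.5 and 71.9 in WT glycerol and 4.0, 6.1, 9.0 and 4.3 in WT PBS. Its WT glycerol libraries spread widely but all exceeded the other 12. It rose in WT by 2.28 ± 0.63 (limma adjusted p = 0.016; 0.054 without WT glycerol 2) and was lower in C3-/- glycerol than in WT glycerol by -2.68 ± 0.63 (limma adjusted p = 0.012).

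Counted together, 7 of the 8 transcripts rose in WT after glycerol, where 12.5% of the 18035 genes tested rose. The median log2 difference was 2.2 over the 8 and -0.11 over all genes. For C3-/- glycerol against WT glycerol, 7 of the 8 were lower, where 4.85% of all genes were lower, with medians of -3.28 and 0.04. Between C3-/- PBS and WT PBS, 2 of the 8 (S100a8 and S100a9) were lower, where 1.19% of all genes were, with medians of -1.9 and 0.02. The 8 were chosen with earlier results of these data known. In addition, Clec4d, Clec4e, Cxcr2, Il1r2 and Trem1 reached the minimum of 10 in 4 libraries only through WT glycerol. Their part in the counts with WT glycerol was thus favoured by the filter, and these counts are a description. With no filter the number called in each of these comparisons was the same, where in turn 11.3%, 4.47% and 1.18% of all genes were called. The 8 are tested either way with the same log2 differences, so that equal number does not address the favouring by the filter. With only the 2 groups compared in the fit, 3 of the 8 were called lower in C3-/- glycerol than in WT glycerol (0.81% of all genes), and 7 of the 8 in C3-/- PBS than in WT PBS (12.9% of all genes).

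**Figure D2:**
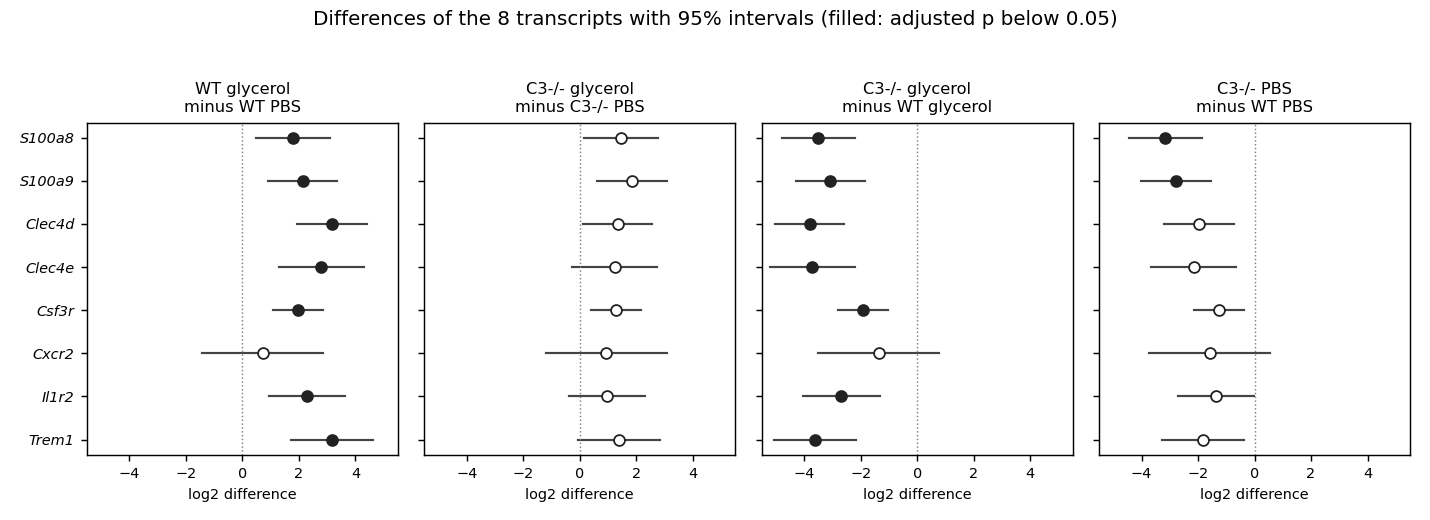
Log2 differences (x axis) of the 8 transcripts (y axis) in 4 comparisons, with 95% intervals from limma over 16 libraries; filled points have an adjusted p below 0.05. Filled points number 7, 0, 7 and 2 from left to right, and every difference has the same sign within a panel.

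The response to glycerol in the labelled C3-/- kidneys was less certain. None of the 8 was called by limma in C3-/- glycerol against C3-/- PBS, where 3.68% of all genes were called higher, and 4 had an unadjusted p below 0.05. The log2 differences were 1.45 for S100a8, 1.84 for S100a9 (limma adjusted p = 0.075), 1.34 for Clec4d, 1.24 for Clec4e, 0.94 for Cxcr2, 0.96 for Il1r2 and 1.39 for Trem1, beside 1.29 for Csf3r. S100a9 and Csf3r passed without WT glycerol 4, where 8.1% of all genes were called higher. S100a9 also passed without C3-/- glycerol 2 (5.08% of all genes) or 3 (4.51%). The authors' deposited table for the same comparison lists S100a9 (log2 fold change 1.91, adjusted p = 0.011) and Csf3r (1.35, adjusted p = 0.022) past 0.05, where it lists 10.4% of the genes it tested as higher. Not past 0.05, it lists Clec4e (3.0), Trem1 (2.71), Clec4d (2.59), Cxcr2 (1.73), S100a8 (1.63) and Il1r2 (0.84). The authors' deposited table for WT has 2.86, 3.64, 3.39, 1.93, 1.96 and 2.68 for these genes in turn.

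Whether the 2 genotypes responded differently was tested directly. The difference between the responses, C3-/- minus WT, was not called for any of the 8 with limma, where 0.216% of all genes were called in the lower direction, and 1 of the 8 had an unadjusted p below 0.05. That 1 was Clec4d, at -1.83 on the log2 scale with a 95% interval of -3.57 to -0.1 (unadjusted p = 0.0392, limma adjusted p = 0.45). With a pseudocount of 8 it was called, at -1.78 with a limma adjusted p of 0.049. That pseudocount exceeds every Clec4d count in both C3-/- groups, and the response was then 0.33 in C3-/- and 2.11 in WT. Within list 1, at a pseudocount of 1, the difference for Clec4d was -0.99 (limma adjusted p = 0.46). For S100a8 the difference was -0.34 with a 95% interval of -2.18 to 1.51, and for S100a9 -0.29 with an interval of -2.03 to 1.45. For Trem1 the interval ran from -3.85 to 0.27, for Clec4e from -3.68 to 0.58, for Il1r2 from -3.22 to 0.59, for Csf3r from -1.93 to 0.59 and for Cxcr2 from -2.81 to 3.25. Of the 8 intervals, those of the 7 transcripts other than Clec4d include 0, and PBS values near 0 in the C3-/- libraries shrink the log2 differences there through the pseudocount of 1.

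The authors' deposited tables call all 8 in the other 2 comparisons they hold. In the authors' deposited table for WT, Cxcr2 has a log2 fold change of 1.93 (adjusted p = 0.025) and Trem1 one of 3.64 (adjusted p = 4.3e-05), and 15.9% of the genes tested are listed as higher. In the authors' deposited table for C3-/- against WT after glycerol, Cxcr2 has -2.17 (adjusted p = 0.018) and Clec4d -4.0 (adjusted p = 2.7e-07), and 7.25% are listed as lower. Counted as groups that do not overlap, 7 of the 8 were higher in WT glycerol than in WT PBS (18.2% of all genes) and 1, Csf3r, in C3-/- glycerol than in C3-/- PBS (9.53%). By the same count 7 were lower in C3-/- glycerol than in WT glycerol (5.07%) and 6 in C3-/- PBS than in WT PBS (13.1%).

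Within the 13 libraries of list 1 more of the 8 were called in both responses to glycerol and between the PBS groups, and a larger share of all genes was called in each of the 5 comparisons. All 8 rose in WT (26.7% of all genes). Between C3-/- glycerol and C3-/- PBS, 4 of the 8 rose (12.4% of all genes): Trem1 by 2.69 (limma adjusted p = 0.0043), Clec4e by 2.51 (0.013), Csf3r by 1.45 (0.018) and Clec4d by 2.02 (0.035). This comparison has 2 libraries in C3-/- glycerol. In C3-/- glycerol against WT glycerol 7 of the 8 were lower (14.6% of all genes), all but Il1r2 at -2.02 (limma adjusted p = 0.064), and in C3-/- PBS against WT PBS 7 were lower (10% of all genes), all but Il1r2 at -1.37 (limma adjusted p = 0.12). For the difference between the responses none of the 8 was called by limma (5.42% of all genes in the lower direction), and 0 had an unadjusted p below 0.05. Within list 1 the log2 difference of S100a8 between the genotypes was -3.35 after glycerol and -3.16 after PBS. List 2 holds no PBS library, so no within-list response could be had there.

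With the list and the detection of Y-linked transcripts as terms in the fit, 7 of the 8 were lower in C3-/- glycerol than in WT glycerol (14.3% of all genes) and 3 in C3-/- PBS than in WT PBS (2.11% of all genes). S100a8 then differed by -3.66 (limma adjusted p = 0.0011) after glycerol and -3.7 (limma adjusted p = 0.01) after PBS. That fit called 4 of the 8 higher in C3-/- glycerol than in C3-/- PBS (10.3% of all genes): S100a8, S100a9, Clec4e and Trem1. Within C3-/- glycerol, the 2 libraries with Y-linked transcripts had S100a8 counts of 4.9 and 36.8, and the 2 without them 20.5 and 8.1.

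**Figure D3:**
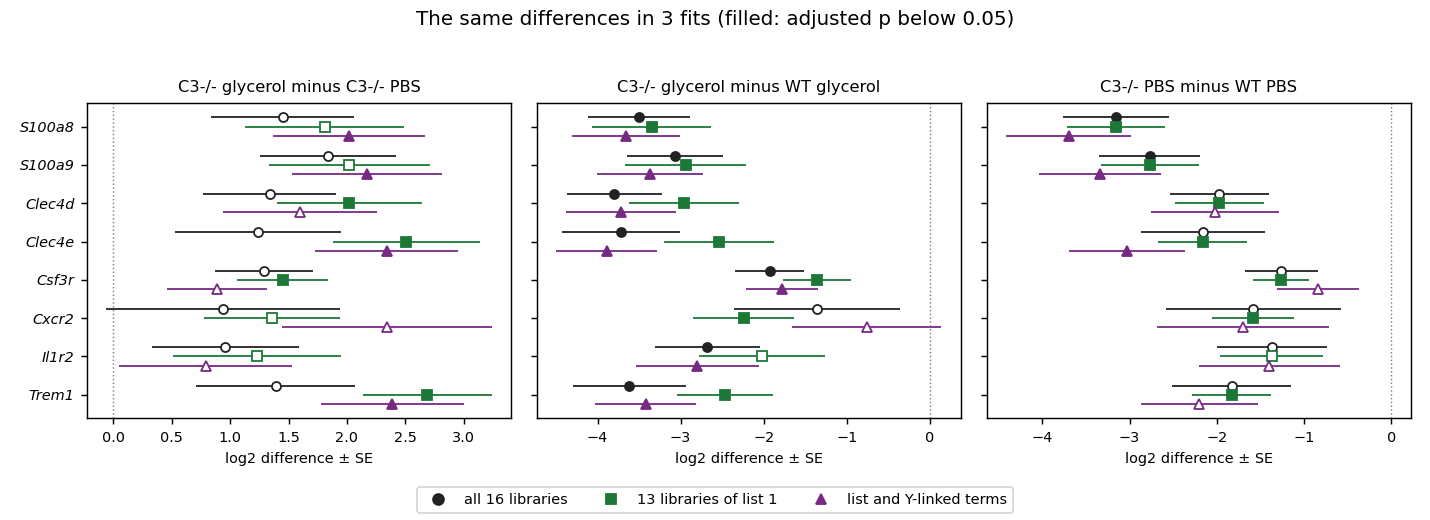
Log2 differences ± SE (x axis) of the 8 transcripts (y axis) in 3 comparisons, from all 16 libraries (circles), the 13 of list 1 (squares) and a fit with list and Y-linked transcripts as terms (triangles); filled points have an adjusted p below 0.05. Every difference keeps its sign in the 3 fits, while the number of filled points in the left panel is 0, 4 and 4 and in the right panel 2, 7 and 3.

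Other neutrophil genes showed the pattern in part. Of 31 further genes listed for neutrophil granules, oxidase and adhesion, 21 were in the matrix and 15 were tested. In WT after glycerol 4 rose and 1 fell, and their median log2 difference was 0.97. Of all 18035 genes tested, 2262 (12.5%) rose and 2404 fell, with a median of -0.11. Itgam, the alpha chain of the integrin Mac-1 that monocytes and macrophages share, averaged 42.8 ± 25.0 in C3-/- glycerol and 25.4 ± 5.40 in C3-/- PBS, against 294 ± 118 in WT glycerol and 71.2 ± 12.2 in WT PBS (SD, n = 4 each). It rose in WT by 1.92 (limma adjusted p = 0.017) and was lower in C3-/- glycerol than in WT glycerol by -2.97 (limma adjusted p = 0.0023). Mmp9, a gelatinase stored in neutrophil granules, rose in WT by 1.53 (limma adjusted p = 0.039), a call lost when any 1 of WT PBS 1 to 4 or WT glycerol 2 was left out (adjusted p 0.061 to 0.12). Fpr2, a formyl peptide receptor, rose in WT by 2.56 (limma adjusted p = 0.0063), and its level was 26.5 ± 31.1 in C3-/- glycerol against 34.5 ± 11.04 in WT glycerol, with no call between them (limma adjusted p = 0.42). Ncf4, an oxidase subunit, rose in WT by 2.18 (limma adjusted p = 0.013), while Cybb, the membrane subunit of the same oxidase and also a macrophage gene, fell by 1.04 (limma adjusted p = 0.018; 0.057 without WT PBS 3). For this list 0 genes were called in C3-/- glycerol against C3-/- PBS, where 3.68% of all genes were higher. Between the PBS groups 0 were called, where 1.19% of all genes were lower. At shares this low, 0 of 15 says little about the list. In C3-/- glycerol 4 were lower than in WT glycerol, where 4.85% of all genes were. Ly6g, Mpo and the other listed genes were not analysed here.

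Of the genes for chemokines that bind the Cxcr2 receptor, Cxcl1 and Cxcl2 rose in both genotypes. Of 9 chemoattractants and growth factors listed, 6 were tested: 4 rose in WT (12.5% of all genes) and 2 rose in C3-/- (3.68%). Of these 6, 4 were lower in C3-/- glycerol than in WT glycerol (4.85% of all genes). In C3-/- PBS 2 were lower than in WT PBS (1.19%). Cxcl1 averaged 574 ± 428 in C3-/- glycerol and 9.96 ± 4.62 in C3-/- PBS, against 2690 ± 864 in WT glycerol and 81.2 ± 32.3 in WT PBS (SD, n = 4 each). Its log2 difference was 5.54 (limma adjusted p = 2.1e-05) in C3-/- and 5.06 (limma adjusted p = 8.8e-06) in WT, and -2.44 (limma adjusted p = 0.0046) for C3-/- glycerol against WT glycerol. Cxcl2 rose by 3.35 (limma adjusted p = 0.00081) in C3-/- and by 4.4 (limma adjusted p = 1.9e-05) in WT. Between C3-/- PBS and WT PBS the log2 difference was -2.91 (limma adjusted p = 0.0035) for Cxcl1 and -1.91 (limma adjusted p = 0.047) for Cxcl2, which missed the threshold (adjusted p 0.055 to 0.17) when any 1 of the PBS libraries, WT glycerol 1 to 3 or C3-/- glycerol 2 or 4 was left out. For both genes the difference between the responses was not called (limma adjusted p = 0.94 and 0.68). Cxcl5 averaged 2.62 ± 2.55 in C3-/- glycerol against 86.5 ± 19.3 in WT glycerol, and Cxcl3 averaged 1.36 ± 1.83 against 24.7 ± 4.74. Both are listed at 0 in all 8 PBS libraries. Csf3, which encodes G-CSF, was too low to be tested, at 2.21 ± 1.93 in C3-/- glycerol and 9.98 ± 6.29 in WT glycerol.

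Among 6 endothelial adhesion genes, 2 rose in WT (12.5% of all genes) and 1 in C3-/- (3.68%). In C3-/- glycerol 3 were lower than in WT glycerol (4.85% of all genes). Selp, which encodes the P-selectin that slows passing leukocytes, averaged 7.39 ± 5.34 in C3-/- glycerol and 6.05 ± 4.38 in C3-/- PBS, against 91.2 ± 27.8 in WT glycerol and 6.99 ± 4.58 in WT PBS. It rose in WT by 3.63 (limma adjusted p = 0.00024) and was lower in C3-/- glycerol than in WT glycerol by -3.6 (limma adjusted p = 0.00051). Icam1, the endothelial ligand of Mac-1, rose by 1.31 (limma adjusted p = 0.01) in C3-/- and by 1.82 (limma adjusted p = 0.00024) in WT. Of 12 tested ligands and signalling partners of the 8 gene products, 5 rose in WT and 1 in C3-/-, beside the same shares of all genes. In C3-/- glycerol 3 were lower than in WT glycerol (4.85% of all genes), and 1 in C3-/- PBS than in WT PBS (1.19%). Il1b, encoding the cytokine that the Il1r2 decoy binds, averaged 51.2 ± 33.1 in C3-/- glycerol and 28.7 ± 10.8 in C3-/- PBS, against 369 ± 113 in WT glycerol and 123 ± 42.0 in WT PBS. It was lower in C3-/- glycerol than in WT glycerol by -2.98 (limma adjusted p = 0.00033) and in C3-/- PBS than in WT PBS by -2.07 (limma adjusted p = 0.015). The PBS call of Il1b was lost without WT PBS 3 or 4 or C3-/- PBS 2 (adjusted p 0.058 to 0.066). Clec4n encodes Dectin-2, a lectin receptor of the same gene cluster as Clec4d and Clec4e. Clec4n rose in WT by 3.06 (limma adjusted p = 0.00087). It was lower in C3-/- glycerol than in WT glycerol by -2.78 (limma adjusted p = 0.0036). Its counts were 19.9 to 85.2 in WT glycerol, and at most 8.0 in C3-/- glycerol, 3.5 in C3-/- PBS and 4.2 in WT PBS. It thus passed the filter only through WT glycerol. The filter favoured a gene with this pattern. Neither these p-values nor the counts of called genes for its list allow for that. With only the 2 glycerol groups in the fit, Itgam, Cxcl1 and Clec4n missed the threshold (adjusted p 0.077, 0.056 and 0.09).

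Markers of other blood cells moved with some of these comparisons. The 5 measured red cell genes summed to between 15817.7 and 19472.2 in C3-/- glycerol and between 3329.6 and 7822.5 in C3-/- PBS, against 12698.8 to 26398.5 in WT glycerol and 13840.8 to 22602.8 in WT PBS. Of these 5, 4 were lower in C3-/- PBS than in WT PBS (1.19% of all genes). Between C3-/- glycerol and C3-/- PBS, 3 were higher with glycerol (3.68% of all genes). These are the directions of the neutrophil transcripts. The part of red cells in those 2 comparisons was not tested. No red cell gene was called by limma between C3-/- glycerol and WT glycerol, where 4.85% of all genes were lower. The median log2 difference of the red cell genes was -0.15, beside -3.28 for the 8 neutrophil transcripts. Alas2, the first enzyme of heme synthesis in red cell precursors, was lower in C3-/- PBS than in WT PBS by -1.79 (limma adjusted p = 0.011).

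The 13 macrophage and monocyte genes summed to between 4423.0 and 7823.0 in C3-/- glycerol and 4034.7 to 5195.4 in C3-/- PBS, against 5981.5 to 8343.5 in WT glycerol and 4789.6 to 5188.6 in WT PBS. None of the defining markers Adgre1, Csf1r and Cd68 was at 0 in any group. In WT 4 rose (12.5% of all genes) and 1 fell, and in C3-/- 2 rose (3.68%). In C3-/- glycerol against WT glycerol 1 was higher and 4 were lower (4.85% of all genes lower). Cd68, a lysosomal macrophage marker, averaged 441 ± 370 in C3-/- glycerol and 61.4 ± 10.3 in C3-/- PBS, against 536 ± 140 in WT glycerol and 70.5 ± 3.49 in WT PBS. It rose by 2.54 (limma adjusted p = 0.0011) in C3-/- and by 2.87 (limma adjusted p = 8.1e-05) in WT. Adgre1, which encodes F4/80, averaged 96.1 ± 53.3 in C3-/- glycerol and 111 ± 19.9 in C3-/- PBS, against 107 ± 50.6 in WT glycerol and 209 ± 15.0 in WT PBS. Csf1r, the receptor for the macrophage growth factor M-CSF, did not rise with Cd68. It averaged 2317 ± 838 in C3-/- glycerol and 2709 ± 463 in C3-/- PBS, against 974.8 ± 235 in WT glycerol and 1809 ± 110.3 in WT PBS. It had a log2 difference of -0.92 (limma adjusted p = 0.0096) in WT after glycerol, and was higher in C3-/- glycerol than in WT glycerol by 1.21 (limma adjusted p = 0.0035; 0.097 with only those groups in the fit). Cd14, a co-receptor for lipopolysaccharide on monocytes, rose in WT by 2.81 (limma adjusted p = 3.1e-05) and was lower in C3-/- glycerol than in WT glycerol by -2.3 (limma adjusted p = 0.0003). Itgax, an integrin chain of dendritic cells and macrophages, rose by 1.52 (limma adjusted p = 0.0072) in C3-/- and 1.55 (limma adjusted p = 0.0015) in WT. It missed the threshold in C3-/- with only those groups in the fit (adjusted p = 0.086), and it was lower in C3-/- glycerol than in WT glycerol by -1.53 (limma adjusted p = 0.0034). The part of macrophages and monocytes in the neutrophil transcript levels was not tested. The 10 lymphocyte genes summed to 122.6 to 257.2 in C3-/- glycerol and 146.0 to 191.5 in C3-/- PBS, against 130.1 to 168.3 in WT glycerol and 222.9 to 295.0 in WT PBS. Of 8 tested, 1 fell in WT after glycerol, where 2404 of all 18035 genes fell. The 8 kidney tubule and podocyte genes, which mark the labelled tissue, were high in every library. They summed to 205118.5 to 371359.5 in C3-/- glycerol and 398296.4 to 425976.5 in C3-/- PBS, against 81160.6 to 206041.4 in WT glycerol and 391742.8 to 448657.4 in WT PBS. In WT after glycerol 4 of the 8 fell, beside the 2404 of all genes that fell. In C3-/- glycerol 2 were higher than in WT glycerol, where 1150 of all 18035 genes were. The 1 measured skeletal muscle gene had 130.7, 128.4, 142.0 and 0.9 in C3-/- PBS, against at most 18.6 in C3-/- glycerol, 0.0 in WT glycerol and 1.8 in WT PBS. The part of these shifts in the neutrophil transcript comparisons was not tested.

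**Figure D4:**
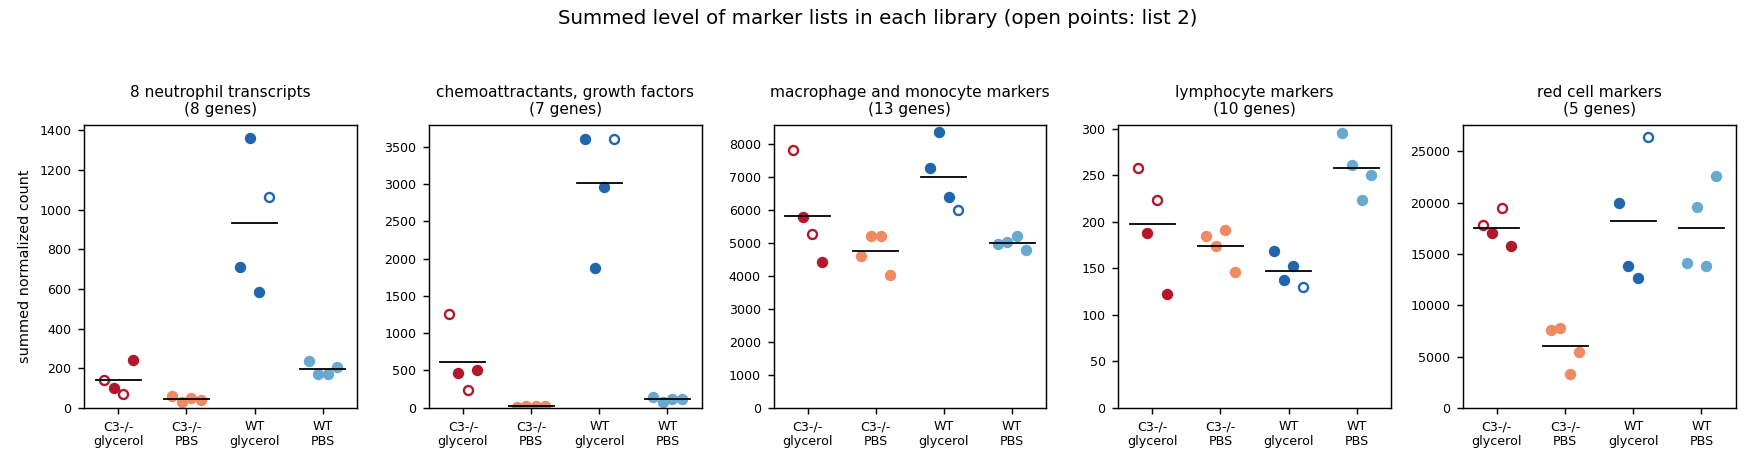
Summed normalized count (y axis, linear, a different range in each panel) of the 8 neutrophil transcripts and 4 marker lists in each library, by group (x axis); lines are group means and open points are list 2. The neutrophil sum is 71.6 to 240.3 in C3-/- glycerol against 584.6 to 1360.0 in WT glycerol, and the red cell sum is lowest in C3-/- PBS.

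Per kilobase of exon, the order of levels was similar across groups at the top. In C3-/- glycerol the median normalized count per kilobase was 63.6 for S100a9, 20.6 for S100a8 and 14.1 for Csf3r, and between 0.45 and 1.93 for the other 5. In WT glycerol it was 441 for S100a9, 204 for S100a8, 58.2 for Csf3r, 31.2 for Clec4d, 20.4 for Il1r2, 12.8 for Trem1, 9.68 for Cxcr2 and 8.87 for Clec4e. Neighbours in the order of a group overlapped over libraries, with a few exceptions. S100a8 lay clear of Csf3r in both WT groups, Csf3r lay clear of the next gene in every group but WT glycerol, and Cxcr2 lay clear of Clec4e in C3-/- PBS.

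The 8 transcripts varied together across libraries. Over the 16 libraries, which share groups, the 28 pairs had Pearson r between 0.34 and 0.98 with a median of 0.84. Within list 1 the range was 0.79 to 0.99, and the pair lowest over all 16, Csf3r with Cxcr2, had an r of 0.94. Among the genes with a mean of at least 50 whose log2 values most resembled the mean pattern of the 8, over the same 16 libraries, were Plin2 (r = 0.974), Sfn (0.973), Egr2 (0.95), Il1b (0.95), Slc25a37 (0.945), Smad1 (0.941) and Slc16a3 (0.939). Plin2, which encodes a lipid droplet coat protein, averaged 981.6 in C3-/- glycerol and 505.3 in C3-/- PBS, against 11120 in WT glycerol and 1779 in WT PBS. Sfn, a gene of epithelial cells, averaged 131 in C3-/- glycerol and 37.6 in C3-/- PBS, against 2511 in WT glycerol and 184 in WT PBS. These correlations describe 4 groups and carry no test.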

How the data were processed

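Per the labels' protocols, RNA from kidney sections was sequenced with standard Illumina library preparation. The authors' tools, per the submitters' processing notes, included R 3.6.1, STAR 2.7.1 and DESeq2, on build GRCm38. Gene models came from Ensembl release 96, per the file headers. The deposited matrix holds signal, read counts that the authors normalized with DESeq2. No source used here names the program that counted reads or its strand setting. Whole reads could not be recovered, so depth is unknown and precision rests on the 4 libraries of a group. The authors also deposited 3 tables with, for each gene, the mean signal, log2 fold change and SE, a test score (Wald statistic, not used), and raw and adjusted p-values.

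The log2 of each normalized count + 1 was tested using limma 3.58.1 (R 4.3.3), with a mean-variance trend and 1 coefficient per group over 16 libraries. The 5 two-sided contrasts were adjusted by Benjamini-Hochberg over 18035 genes with at least 10 in at least 4 libraries, with calls made below 0.05. The scale understates the change of low genes. The calculation was tested on simulated data. Alternatives were pseudocounts of 0.5 and 8, no filter, a mean of at least 100, other scalings, array weights, no trend, list and Y-linked terms, a replicate block, only the compared groups, list 1 alone, and leaving out each library. Groups came from sample titles. The members and the gene lists were chosen with earlier results of these data known. Other genes were named by a rule: up to 6 called genes per list with the smallest p for a response to glycerol, Ly6g, Mpo, Cxcl1, Cxcl2, Csf3, Il1b, Adgre1 and Cd68 in any case, and the 8 genes most like the members, of which 1 is not reported here. Positions are from GENCODE M21 (GRCm38), and promoters from RefSeq (GRCm38.p6), in which all 8 genes matched.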

Additional observations from a re-analysis of the deposited data

Results flagged for a closer look

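Of 32 groups of 4 libraries (8 transcripts in 4 groups), 3 held a library far from the other 3 by Dixon's criterion at the 95% level. For values without ties, chance gives about 1 in 20. The S100a9 count of 446.9 in WT glycerol 2 stood above 215.4 to 240.7 in the other WT glycerol libraries, with a gap of 0.891 of the range. The Clec4d count of 1.9 in C3-/- PBS 1 and the Trem1 count of 2.0 in C3-/- PBS 3 were the only values above 0 in their groups. In such a group any value above 0 is flagged whatever its size, so both flags say nothing about how far the library lay.

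For 2 neutrophil-attracting chemokine genes limma called the difference between the glycerol responses of the genotypes. For Cxcl5 the fitted difference, C3-/- minus WT, was -4.89 (limma adjusted p = 0.0098) and for Cxcl3 it was -3.75 (limma adjusted p = 0.036). Both genes are listed at 0 in all PBS libraries, so the sizes depend on the pseudocount of 1. Both reached the minimum of 10 in 4 libraries only through WT glycerol, where Cxcl5 was 61.4 to 105.9 and Cxcl3 18.8 to 30.2; in C3-/- glycerol they were at most 6.0 and 3.9. The filter thus favoured a gene with this pattern, and the p-values do not allow for that.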

How the results depend on the processing

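With 8 transcripts called 7 higher in WT glycerol against PBS, 0 in C3-/- glycerol against PBS, 7 lower in C3-/- glycerol against WT glycerol, 2 lower in the PBS groups and 0 for the difference between responses, the counts moved as follows. In C3-/- glycerol against PBS, 4 were called with array weights (whose estimate stopped before full convergence; 15.3% of all genes higher), 4 with list and Y-linked terms (10.3%), 4 within list 1 (12.4%), 2 with quantile normalization (4.45%) and 1 with the list term (8.45%), beside 3.68% as reported. In the PBS groups 8 were called with array weights (18.8% of all genes lower), 7 with only the compared groups (12.9%), 7 within list 1 (10%) and 5 with the list term (4.57%), beside 1.19%. In C3-/- glycerol against WT glycerol 3 were called with only the compared groups (0.81%, beside 4.85%), and for the difference between responses 1 with a pseudocount of 8 (0.455%, beside 0.216%). Leaving out each library gave 5 to 8 in WT (9.37% to 14.2% of all genes) and 0 to 2 in C3-/- (2.01% to 8.1%). It gave 7 to 8 after glycerol (3.21% to 12.1%), 1 to 3 after PBS (0.66% to 1.8%) and 0 to 0 for the difference (0.0721% to 0.66%). The highest count in each direct comparison came without WT glycerol 4. No paired result is given beside these counts, because the replicate numbers gave no sign of pairing libraries (same-number correlations of -0.692 to 0.385, over 0.1 in 4 of 24). Libraries of different numbers were not correlated for comparison, so this check cannot decide whether the numbers pair. With the replicate block 6 were called in WT (10.3% of all genes), S100a8 being lost at 1.79 (limma adjusted p = 0.067). The other counts were 0 (2.37%), 7 (3.79%), 2 (0.92%) and 0 (0.0998%).

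Signs of the differences in the 4 direct comparisons held for all 8 under the alternatives run. The difference between responses reversed for S100a8 to 0.04 with list and Y-linked terms. Leaving out a library, it ranged from -0.8 to 0.09 for S100a8 (0.01, 0.06 and 0.09 without WT glycerol 2, C3-/- PBS 1 and C3-/- glycerol 3), from -0.79 to 0.1 for S100a9 (0.05 and 0.1 without C3-/- glycerol 3 and C3-/- PBS 3) and from -1.08 to 0.86 for Cxcr2. For Cxcr2 it reversed to -0.37 (pseudocount 8), -0.54 (quantile), -0.66 (list 1), -1.21 (array weights), -1.08 (without WT glycerol 4) and -0.3 (without C3-/- glycerol 4), where it was 0.22. The cause was not tested. None of the 8 has a mean of at least 100, so that filter gives them no value. Over all genes the number called ranged from 3446 to 10902 (4666 as reported) in WT, 308 to 5589 (1016) in C3-/-, 297 to 6439 (2025) after glycerol, 203 to 6869 (402) after PBS and 38 to 3225 (79) for the difference. Depth is unknown, so values near 0 cannot be given a detection limit.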
